A study of Mus musculus with 48 samples.

Results

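Vegfa, Cited2 and 7 further genes linked to the response to low oxygen were followed in mouse fibroblast lines after transcription was stopped. The genes were Vegfa, Cited2, Hif1a, Egln1, Egln3, Adm, Bnip3, Ddit4 and Hmox1, and every probe set of the array annotated to 1 of these symbols alone was taken. This gave 17 of the 45037 probe sets on the array after control probe sets were removed. Of these, 14 passed the filter on low signal and were among the 27500 tested, and 3 did not: both probe sets of Egln3 and 1 of the 4 of Hif1a. The tested probe sets cover 8 of the 9 genes.

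The lines came from littermate E14.5 embryos, from Zfp36 +/- parents of strain 129/B6. KO cells were Zfp36 -/- and WT cells Zfp36 +/+, and by the labels there appears to be 1 line of each genotype, so that a difference between the lines and an effect of Zfp36 cannot be told apart. Both lines were held in 0.5% serum for 16 h, given 10% serum for 90 min, and then treated with actinomycin D, an inhibitor of transcription, for 0, 30, 60, 90 or 120 min. The labels of the samples give the dose of actinomycin D as 0.5 ug/ml and the series text as 5 ug/ml. The labels name no treatment with low oxygen. Each sample pooled 3 dishes, and the experiment was run on 5 days with both lines side by side, so that the replicate number names the day. KO cells gave 23 arrays and WT cells 25, with 5 in each of the 10 groups, save that KO cells had 4 at 0 min and 4 at 60 min. Cells of the 0 min groups had serum and no actinomycin D. In these bulk samples, fewer cells with a transcript and less of it per cell cannot be told apart.

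In cells with enough oxygen, the prolyl hydroxylases Egln1 and Egln3 mark the transcription factor subunit HIF-1 alpha, the product of Hif1a, for destruction through the von Hippel-Lindau protein. When oxygen is short, HIF-1 alpha persists, pairs with ARNT and activates genes with the core sequence ACGTG or GCGTG near their start. Vegfa, a growth factor for blood vessels, Adm, a peptide that widens vessels, Bnip3, a mitochondrial protein of autophagy and cell death, Ddit4, an inhibitor of the TOR kinase complex, and Hmox1, the enzyme that breaks down heme, are among its targets. Cited2 is another, and its protein competes with HIF-1 alpha for the coactivators CBP and p300. Serum and stress signals also switch on several of these genes with oxygen present. Zfp36 encodes tristetraprolin (TTP), which binds AU-rich elements of messenger RNA and speeds their decay.

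Promoter windows from RefSeq (build GRCm38.p6, 250 bases before to 50 after a start) were found for 8 of the 9 genes, with 2 windows for Vegfa and 9 windows in all. ACGTG stood on either strand in 7 of the 9 windows, against 19.6% of 32851 windows of all genes. By gene, 7 of the 8 had it in at least 1 window. Either ACGTG or GCGTG stood in 8 of the 9, against 43.8% of all windows. The exception was the Vegfa window at chr17:46032328-46032627, which spans the annotated start of the gene on the minus strand. The other Vegfa window, at chr17:46025114-46025413, lies inside the gene and held 1 of each. The only Hif1a window, at chr12:73907617-73907916, also lies inside the annotated gene, which runs from 73901324 to 73947554. The Adm window held only GCGTG. A match is a description of these letters and not a bound site. Stretches of 45 bases are shown for Cited2 and Ddit4, whose signal fell under actinomycin D, and for Egln1, Bnip3 and Hif1a, whose signal did not, to let the letters around the core be set side by side. They are written 5′ to 3′ on the gene's strand, with ACGTG in capitals, and CACGTG is capitalised where ACGTG stands on both strands with overlap. GCGTG is left in lower case, and of these stretches that of Bnip3 holds it, 2 times on the other strand.
Cited2, chr10:17723055-17723099, plus strand: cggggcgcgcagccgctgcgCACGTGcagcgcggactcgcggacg
Ddit4, chr10:59951933-59951977, minus strand: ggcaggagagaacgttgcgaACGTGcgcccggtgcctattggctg
Egln1, chr8:124949298-124949342, minus strand: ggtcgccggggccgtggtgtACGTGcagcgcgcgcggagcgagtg
Bnip3, chr7:138909590-138909634, minus strand: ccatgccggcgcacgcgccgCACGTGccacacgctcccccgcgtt
Hif1a, chr12:73907712-73907756, plus strand: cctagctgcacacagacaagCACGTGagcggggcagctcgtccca
Cited2, Bnip3 and Hif1a share the 6 letters CACGTG here, and Ddit4 and Egln1 hold ACGTG on 1 strand.

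Values are deposited log2 signals. The 48 arrays had medians of 8.47 to 8.56, 5th percentiles of 8.02 to 8.13 and 95th percentiles of 10.34 to 10.50, and a signal near 8.13 is at the floor of the measurement. The probe set of Zfp36 (1452519_a_at) read 9.60, 9.58, 9.28 and 9.59 in KO and 9.84, 10.14, 9.83, 9.69 and 9.83 in WT at 0 min, lower in KO by -0.35 ± 0.090 (SE, adjusted p = 0.00245). Where this probe set lies relative to the disruption was not stated, so it is a weak check of the labels. Of 12 fibroblast markers, 8 in KO and 9 in WT lay above the 95th percentile in the mean over their arrays, and Thy1 was at the floor in both lines. The 7 endothelial markers lay between 8.14 and 8.54 in KO and between 8.16 and 8.54 in WT, with Pecam1 at 8.16 in KO and 8.17 in WT and Kdr at 8.14 in KO and 8.16 in WT. The deviations from the group means set experiments 4 and 5 apart from experiments 1 to 3 (first component, 33.3% of the variance), and values within these sets are given where a call of these genes changed. KO has 1 array at 0 min in experiments 4 and 5, so each value within that set that uses KO at 0 min rests on 1 KO array. Errors of group means below are SD over arrays, errors of differences and slopes are SE from limma, and p-values are Benjamini-Hochberg adjusted over the 27500 probe sets, with 0.05 as the threshold.

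Under actinomycin D, 8 of the 14 probe sets fell in both KO and WT over 120 min, all those tested for Vegfa, Cited2, Adm, Ddit4 and Hmox1, against 8.73% of all probe sets tested. Per line, 10.6% of all probe sets fell in KO and 14% in WT. Cited2 fell furthest: the log2 change of 1452207_at was -2.21 in KO (4.62-fold, adjusted p = 2.4e-23) and -2.73 in WT (6.62-fold, adjusted p = 1.5e-27), and that of 1421267_a_at -1.56 in KO (adjusted p = 7.4e-16) and -1.98 in WT (adjusted p = 1.7e-20). For Vegfa, 1420909_at changed by -1.07 in KO (2.10-fold, adjusted p = 5.0e-13) and -0.99 in WT (1.99-fold, adjusted p = 5.4e-13), and 1451959_a_at by -1.13 in KO (adjusted p = 1.3e-05) and -1.32 in WT (adjusted p = 1.1e-07). The probe sets of Hif1a, Egln1 and Bnip3 did not pass the test in either direction, and 0 of the 14 rose in KO or in WT, where at an unadjusted p under 0.05 limma gave 1 in KO and 0 in WT. Of all probe sets, 11.9% rose in KO and 10% in WT. How the signals were scaled is not given, and the array medians were alike (8.47 to 8.56). A change under actinomycin D may thus be relative to the other transcripts on the same array, and was not measured against total RNA.

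Vegfa was measured by 2 probe sets. At 0 min, 1420909_at read 11.28, 11.31, 11.02 and 11.42 in KO, against 11.52, 11.40, 11.49, 11.40 and 11.41 in WT. At 30 min the arrays read 11.12, 11.29, 11.08, 11.30 and 11.15 in KO and 11.26, 11.35, 11.23, 11.15 and 11.23 in WT. KO arrays were on the low side at 0 min, with the lowest in experiment 3, and the lines overlapped at both times. At 60 min the values were 10.96, 10.86, 10.48 and 10.85 in KO and 10.86, 10.99, 10.85, 10.72 and 10.71 in WT. At 90 min they were 10.40, 10.32, 10.14, 10.57 and 10.45 in KO and 10.43, 10.65, 10.21, 10.43 and 10.53 in WT. At 120 min they were 10.06, 10.11, 10.12, 10.45 and 10.20 in KO and 10.32, 10.58, 10.26, 10.61 and 10.49 in WT. Most of the loss lay between 30 and 90 min: all arrays at 60 min were below all those at 30 min in each line, and all arrays at 90 min below those at 60 min in WT but not in KO.

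Between neighbouring times the group mean of 1420909_at moved by -0.071 in KO and -0.20 in WT over the first 30 min, neither past the threshold (adjusted p = 0.886 in KO and 0.484 in WT). From 30 to 60 min the mean moved by -0.40 in KO and -0.42 in WT, and from 60 to 90 min by -0.41 in KO and -0.38 in WT. From 90 to 120 min it moved by -0.19 in KO and 0.0036 in WT, and in both lines the arrays of these last times overlapped. The straight-line slope was -0.60 ± 0.046 log2 per h in KO and -0.55 ± 0.044 in WT, halving times of 100.3 min in KO and 108 min in WT. The slope difference, KO minus WT, was -0.043 ± 0.064 log2 per h (95% interval -0.17 to 0.085, adjusted p = 0.888), and the KO slope was the less steep in 2 of 5 experiments. A difference in slope was not detected at this probe set.

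The other Vegfa probe set, 1451959_a_at, spread more widely. Its arrays read 10.38, 10.44, 10.34 and 10.59 in KO at 0 min, against 11.17, 11.11, 10.68, 10.56 and 10.12 in WT, and 9.12, 9.61, 9.14, 9.42 and 9.26 in KO at 120 min, against 9.74, 9.29, 9.22, 9.42 and 9.37 in WT. WT arrays of experiments 1 and 2 were the highest at 0 min and again at 60 min, with 10.47 and 10.56. Slopes were -0.63 ± 0.089 log2 per h in KO and -0.75 ± 0.085 in WT, with a difference of 0.12 ± 0.123 (95% interval -0.13 to 0.37, adjusted p = 0.828). Within experiments 1 to 3 the difference was 0.28, and within experiments 4 and 5 it was -0.13, with neither past the threshold.

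Before actinomycin D, the Vegfa level was not shown to differ between the lines, at -0.18 ± 0.091 for 1420909_at (adjusted p = 0.140) and -0.29 ± 0.191 for 1451959_a_at (adjusted p = 0.296). Within experiments 1 to 3 and within 4 and 5 these were -0.27 and 0.021 for the first and -0.60 and 0.25 for the second, none past the threshold. At 120 min, 1420909_at averaged 10.19 ± 0.152 in KO (n = 5) and 10.45 ± 0.153 in WT (n = 5), lower in KO by -0.26 ± 0.085 (adjusted p = 0.0151) and lower in 5 of 5 experiments. The KO array of experiment 4, at 10.45, lay inside the WT range. This call was lost without experiment 1 (adjusted p = 0.0574), 2 (0.113) or 5 (0.0559), with estimates of -0.26, -0.21 and -0.26, and within experiments 4 and 5 (-0.22, adjusted p = 0.0573). The other probe set gave -0.097 ± 0.180 at 120 min (adjusted p = 0.718).

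**Figure D1:**
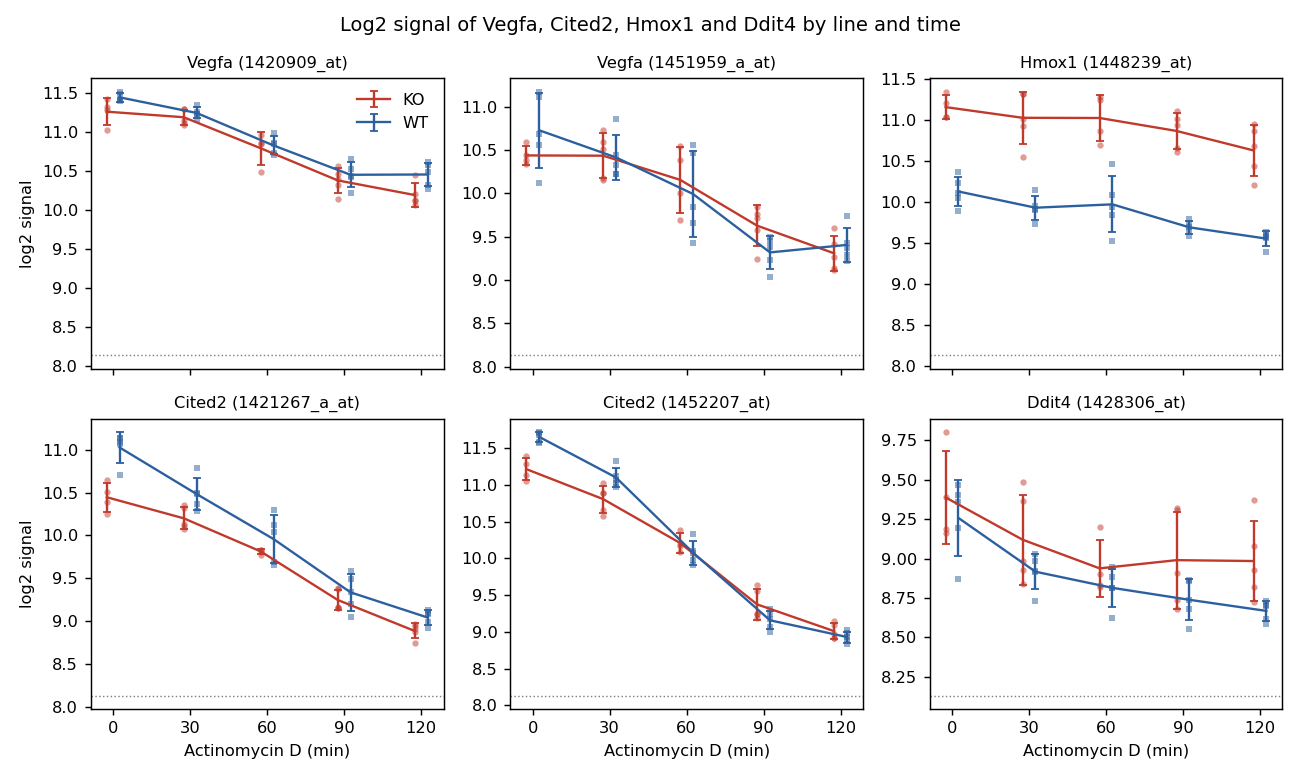
Log2 signal (vertical axis) against minutes of actinomycin D (horizontal axis) for Vegfa, Cited2, Hmox1 and Ddit4, with points for single arrays, lines through group means, bars of 1 SD and a dotted line at the floor of 8.13. KO is in red circles and WT in blue squares. Cited2 starts lower in KO and no longer differs past the threshold at 120 min, Vegfa arrays overlap between the lines at every time, and Hmox1 runs about 1 log2 higher in KO at every time.

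Cited2 was the member with the steepest fall, and the only one whose slope difference passed the threshold. At 0 min, 1452207_at read 11.14, 11.05, 11.40 and 11.28 in KO, against 11.71, 11.72, 11.59, 11.58 and 11.68 in WT. All KO arrays were below all WT arrays. At 30 min the arrays read 10.65, 10.58, 10.90, 11.02 and 10.89 in KO, against 11.03, 11.32, 10.97, 11.13 and 11.06 in WT. At 60 min they read 10.20, 10.08, 10.17 and 10.39 in KO, against 10.10, 10.33, 10.08, 9.91 and 9.97 in WT. By 60 min KO no longer lay below WT, and the KO array was the higher in 3 of 4 experiments. At 90 min the values were 9.24, 9.19, 9.24, 9.56 and 9.64 in KO and 9.17, 9.24, 9.0, 9.07 and 9.31 in WT. At 120 min they were 8.92, 8.92, 8.97, 9.15 and 9.09 in KO and 8.83, 8.93, 8.89, 8.98 and 9.02 in WT. The lines overlapped from 30 min on, and KO was the higher in 4 of 5 experiments at 90 min and at 120 min.

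The second Cited2 probe set, 1421267_a_at, read 10.50, 10.25, 10.39 and 10.65 in KO at 0 min, against 11.09, 11.13, 10.71, 11.07 and 11.14 in WT. At 120 min it read 8.88, 8.91, 8.94, 8.96 and 8.74 in KO, against 9.09, 9.13, 9.10, 8.92 and 8.99 in WT. KO arrays were all below WT arrays at 0 min, and at 120 min 2 KO arrays lay inside the WT range. Cited2 was thus lower in KO before actinomycin D at both probe sets, by -0.58 ± 0.108 (1.5-fold, adjusted p = 4.0e-05) and by -0.44 ± 0.092 for 1452207_at (1.36-fold, adjusted p = 0.000242), in 4 of 4 experiments each. Arrays that do not overlap, with KO below, were found at 0 min for 8.34% of all probe sets, and 11.9% were called lower in KO. The call at both probe sets held under all 12 alternatives, with estimates from -0.69 to -0.46 and from -0.52 to -0.35 for 1452207_at. At 120 min the difference was -0.16 ± 0.102 (adjusted p = 0.241) and 0.080 ± 0.087 (adjusted p = 0.513), not past the threshold.

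Within the first 30 min 1452207_at fell in both lines, by 0.41 ± 0.092 in KO (adjusted p = 0.00767) and 0.55 ± 0.087 in WT (adjusted p = 1.92e-05). Such early falls were called for 1.25% of all probe sets in KO and 1.77% in WT. The KO call was lost without experiment 1 (adjusted p = 0.114) or 3 (0.116), with estimates of -0.40 and -0.37, within experiments 4 and 5 (-0.33, 0.200), and under background subtraction (-0.47, 0.144). At 1421267_a_at the fall passed in WT (-0.54 ± 0.102, adjusted p = 0.000429, but 0.0645 within experiments 1 to 3), and the KO value was -0.25 ± 0.108 (adjusted p = 0.478). The difference of the early change between the lines was called for 0 of the 14 probe sets of these genes, where limma gave 0 at an unadjusted p under 0.05, and for 0.0327% of all probe sets.

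Over the whole course the slope of 1452207_at was -1.18 ± 0.059 log2 per h in KO and -1.48 ± 0.056 in WT, halving times of 51.0 min in KO and 40.5 min in WT. The difference was 0.30 ± 0.081 log2 per h (95% interval 0.14 to 0.47, adjusted p = 0.0489), so that the signal fell more slowly in KO. Fitted experiment by experiment, the slopes ran from -1.31 to -1.13 in KO and from -1.53 to -1.42 in WT, without overlap, as for 1.89% of all probe sets. A slope difference above 0 was called for 0.785% of all probe sets and for 1 of the 14 here, and a difference in either direction for 1.04% of all probe sets. The size varied little, from 0.27 to 0.40 over 12 alternatives, but the adjusted p passed the threshold in only 2 of them, with the replicate block (0.0464) and without experiment 3. It was lost without experiment 1 (0.306), 2 (0.269), 4 (0.122) or 5 (0.0995). At 1421267_a_at the slopes were -0.82 ± 0.049 in KO and -1.02 ± 0.047 in WT, halving times of 72.9 min in KO and 58.6 min in WT, and the difference of 0.20 ± 0.068 did not pass (adjusted p = 0.209), with the KO slope less steep in 5 of 5 experiments. The WT line started higher and both lines ended within 1 log2 of the floor at 1452207_at, and the part of the floor in the slope difference was not tested. Over the 12 alternatives the change of 1452207_at over 120 min ranged from -3.07 to -2.14 in KO and from -3.77 to -2.63 in WT. Halving times are those of the deposited signals.

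**Figure D2:**
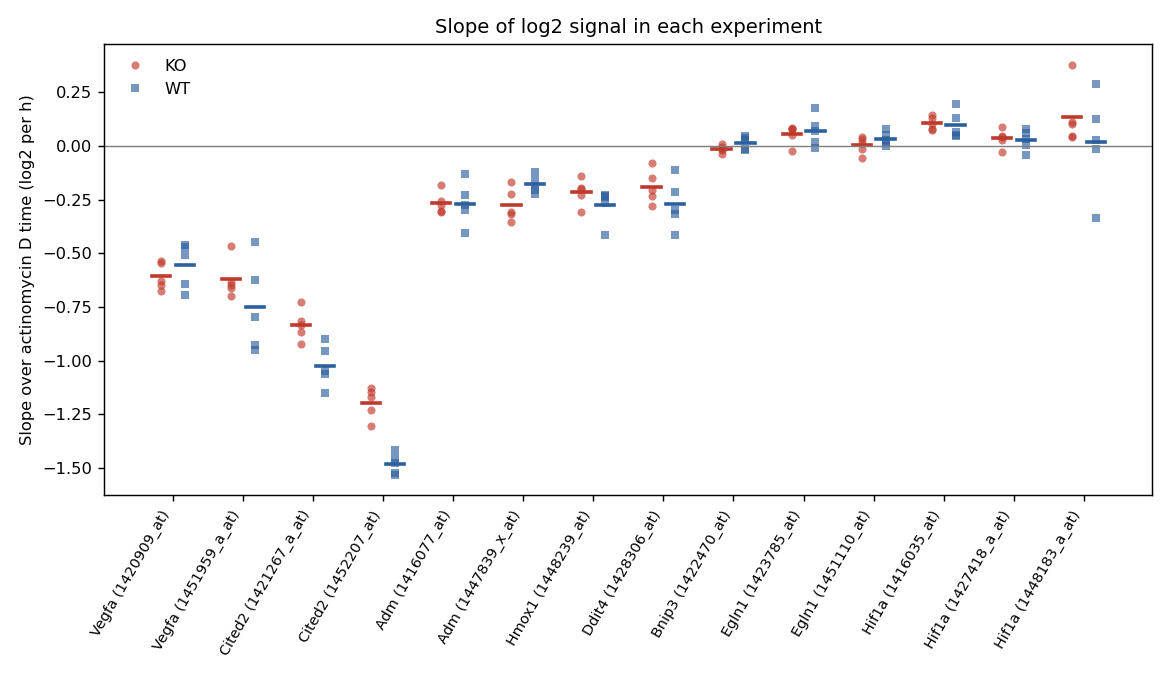
Slope of log2 signal over actinomycin D time (vertical axis, log2 per h) for each of the 14 probe sets (horizontal axis), with 1 point per experiment and a bar at the mean of the 5 points. KO is in red circles, left, and WT in blue squares, right. The Cited2 slopes of 1452207_at do not overlap between the lines, and those of every other probe set do.

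Hmox1 differed most between the lines. Its probe set 1448239_at read 11.21, 11.34, 11.03 and 11.04 in KO at 0 min, against 10.23, 10.37, 10.04, 10.10 and 9.89 in WT. At 30 min it read 11.32, 11.32, 11.01, 10.92 and 10.55 in KO, against 9.73, 10.14, 9.95, 9.91 and 9.92 in WT. At 60 min it read 11.24, 11.27, 10.87 and 10.70 in KO, against 10.08, 10.46, 9.84, 9.53 and 9.94 in WT. KO arrays were above all WT arrays at each of these times, and KO experiments 1 and 2 were the highest. At 90 min the values were 11.00, 11.11, 10.66, 10.94 and 10.60 in KO and 9.79, 9.65, 9.58, 9.70 and 9.74 in WT. At 120 min they were 10.86, 10.95, 10.44, 10.68 and 10.20 in KO and 9.60, 9.57, 9.56, 9.64 and 9.40 in WT. The lines did not overlap at any of the 5 times, as for 9.62% of all probe sets with KO above at 0 min and 8.93% to 12.7% at the other times.

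The Hmox1 difference was 1.03 ± 0.147 at 0 min (2.04-fold, adjusted p = 3.6e-07) and 1.07 ± 0.139 at 120 min (2.10-fold, adjusted p = 3.4e-08), higher in KO in every experiment. Higher levels in KO were called for 13.4% of all probe sets at 0 min, for 18.7% at 120 min and for 10.8% at both. The calls held under all 12 alternatives at both times, and within experiments 1 to 3 and within 4 and 5 the values at 0 min were 0.98 and 1.04. Hmox1 fell by 0.53 ± 0.147 in KO (adjusted p = 0.00671) and by 0.57 ± 0.139 in WT (adjusted p = 0.00145), and neither fall passed within experiments 4 and 5 alone (-0.60, adjusted p = 0.138, in KO and -0.48, adjusted p = 0.0860, in WT). The slopes were -0.25 ± 0.063 log2 per h in KO and -0.28 ± 0.060 in WT, with a difference of 0.032 ± 0.087 (95% interval -0.14 to 0.21, adjusted p = 0.948).

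Adm fell in both lines, from a level near the floor. At 0 min 1416077_at read 9.23, 9.11, 9.0 and 9.21 in KO, against 9.16, 9.31, 9.05, 8.87 and 8.72 in WT. At 120 min it read 8.71, 8.77, 8.58, 8.64 and 8.60 in KO, against 8.56, 8.53, 8.55, 8.47 and 8.51 in WT. The lines overlapped at 0 min, and at 90 and 120 min all KO arrays lay above all WT arrays, as for 9.99% and 12.7% of all probe sets. The fitted difference at 120 min was 0.14 ± 0.070 and did not pass (adjusted p = 0.129), and under background subtraction it was 0.52 (adjusted p = 0.0128). The fall over 120 min was 0.48 in KO and 0.50 in WT for this probe set, and 0.56 in KO and 0.31 in WT for 1447839_x_at. Under background subtraction the changes were -1.09 in KO and -1.34 in WT for 1416077_at and -1.45 in KO and -0.94 in WT for 1447839_x_at, all past the threshold, and within experiments 4 and 5 the WT change of 1416077_at was -0.31. Slope differences were 0.0047 ± 0.045 and -0.091 ± 0.054 log2 per h, with adjusted p = 0.987 and 0.672. Within experiments 4 and 5 the difference at 1447839_x_at was -0.15 and passed (adjusted p = 0.0361). At 0 min Adm was called higher in KO only within experiments 4 and 5 at both probe sets (0.42 and 0.30) and, for 1416077_at, without experiment 2 (0.20, adjusted p = 0.0326). KO at 0 min has 1 array in experiments 4 and 5.

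Ddit4 fell in both lines and varied by experiment in KO. Its probe set 1428306_at read 9.19, 9.16, 9.39 and 9.80 in KO at 0 min, against 9.40, 9.47, 9.36, 8.87 and 9.19 in WT. At 120 min it read 8.72, 8.93, 8.82, 9.37 and 9.08 in KO, against 8.59, 8.71, 8.70, 8.61 and 8.73 in WT. KO arrays of experiments 4 and 5 were the highest at 30, 60, 90 and 120 min where they exist, and the WT array of experiment 4 was the lowest at 0, 30 and 60 min. The fall was 0.40 ± 0.136 in KO (adjusted p = 0.0268) and 0.59 ± 0.128 in WT (adjusted p = 0.000421). The KO call was lost without experiment 1 (-0.40, adjusted p = 0.0772), 2 (-0.46, 0.0505) or 3 (-0.36, 0.141), within experiments 4 and 5 (-0.58, 0.0542), and under background subtraction (-0.75, 0.0542). In WT it was lost only within experiments 4 and 5 (-0.36, 0.0786), and background subtraction gave -1.33. Within experiments 1 to 3 the fall passed already at 30 min, at -0.33 in KO (adjusted p = 0.0178) and -0.47 in WT (adjusted p = 0.000335). Between the lines Ddit4 gave 0.13 ± 0.136 at 0 min (adjusted p = 0.554) and 0.32 ± 0.128 at 120 min (adjusted p = 0.0545), higher in KO in 5 of 5 experiments at 120 min. With the replicate block, which compares the lines within experiments, the value at 120 min passed (0.32, adjusted p = 0.0363), as it did under background subtraction (0.80, adjusted p = 0.0184) and quantile normalization (0.32, adjusted p = 0.0437). Within experiments 1 to 3 the difference was -0.16 at 0 min (adjusted p = 0.123) and 0.16 at 120 min (adjusted p = 0.104). Within experiments 4 and 5 it was 0.77 at 0 min, where KO has 1 array, and 0.55 at 120 min, where it passed (adjusted p = 0.0136).

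No change over time passed the test for Hif1a, Egln1 or Bnip3. Hif1a gave group means of 11.00 to 11.12 over the 10 groups at 1427418_a_at, 9.55 to 9.80 at 1416035_at and 9.46 to 9.82 at 1448183_a_at, and its other probe set, 1431981_at, was at the floor with group means of 7.82 to 7.97. Changes over 120 min ranged from 0.080 to 0.28 in KO and from 0.012 to 0.19 in WT, none past the threshold. At 1416035_at the KO change of 0.25 passed without experiment 4 (0.29, adjusted p = 0.0291) and within experiments 1 to 3 (0.24, adjusted p = 0.0450). At 1448183_a_at the WT change of 0.012 was 0.36 within experiments 4 and 5 and passed (adjusted p = 0.0454). KO minus WT at 0 min was -0.032 ± 0.115, 0.032 ± 0.091 and -0.17 ± 0.177 for 1416035_at, 1427418_a_at and 1448183_a_at, and none passed. At 1416035_at the KO array of experiment 4 read 9.93 at 0 min, 10.05 at 30 min, 10.12 at 90 min and 10.15 at 120 min, the highest of its group each time. Within experiments 4 and 5 the KO minus WT value of 1448183_a_at at 0 min was 0.49, the opposite sign to the value over all experiments. That value rests on 1 KO array, at 9.74.

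Egln1, the main oxygen sensor of this pathway in most cells, read 9.67, 9.83, 9.64 and 9.50 in KO at 0 min at 1423785_at, against 9.44, 9.53, 9.34, 9.37 and 9.46 in WT. At 120 min it read 9.87, 9.84, 9.84, 9.65 and 9.59 in KO, against 9.39, 9.56, 9.65, 9.54 and 9.55 in WT. KO was the higher in every experiment at every time, and the arrays overlapped except at 60 min, where non-overlap with KO above held for 9.81% of all probe sets. The difference was 0.23 ± 0.068 at 0 min (1.18-fold, adjusted p = 0.00798) and 0.22 ± 0.064 at 120 min (adjusted p = 0.00752). Within experiments 4 and 5 it was 0.083 and 0.074, not past the threshold, and under background subtraction 0.36 and 0.34. It was also lost at 0 min without experiment 3 (0.22, adjusted p = 0.0517), and at 120 min without experiment 1 (0.15, 0.151) and with quantile normalization (0.15, 0.0992). The other Egln1 probe set, 1451110_at, gave 0.085 ± 0.055 at 0 min (adjusted p = 0.284) and 0.058 ± 0.051 at 120 min (adjusted p = 0.406).

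Egln3, a hydroxylase that is itself a HIF target, gave group means of 7.97 to 8.06 at 1418648_at and 8.13 to 8.19 at 1418649_at, at or just above the floor in both lines at all times, and was not tested. Bnip3 averaged 9.76 ± 0.115 in KO (n = 4) and 9.57 ± 0.107 in WT (n = 5) at 0 min, and its group means stayed between 9.57 and 9.77. The difference at 0 min was 0.19 ± 0.081 (adjusted p = 0.0887), higher in KO in 4 of 4 experiments, and at 120 min 0.14 ± 0.077 (adjusted p = 0.152), higher in 5 of 5. With the replicate block the values passed, at 0.22 (adjusted p = 0.000685) and 0.14 (adjusted p = 0.0137). The 0 min value also passed with quantile normalization (0.18, adjusted p = 0.0358) and within experiments 1 to 3 (0.21, adjusted p = 0.0371). Within experiments 4 and 5 the 0 min value was 0.21, from 1 KO array. The 120 min value passed within 4 and 5 (0.22, adjusted p = 0.00659). The levels of Bnip3 differed between experiments in KO, where experiments 4 and 5 were the highest from 30 min on.

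**Figure D3:**
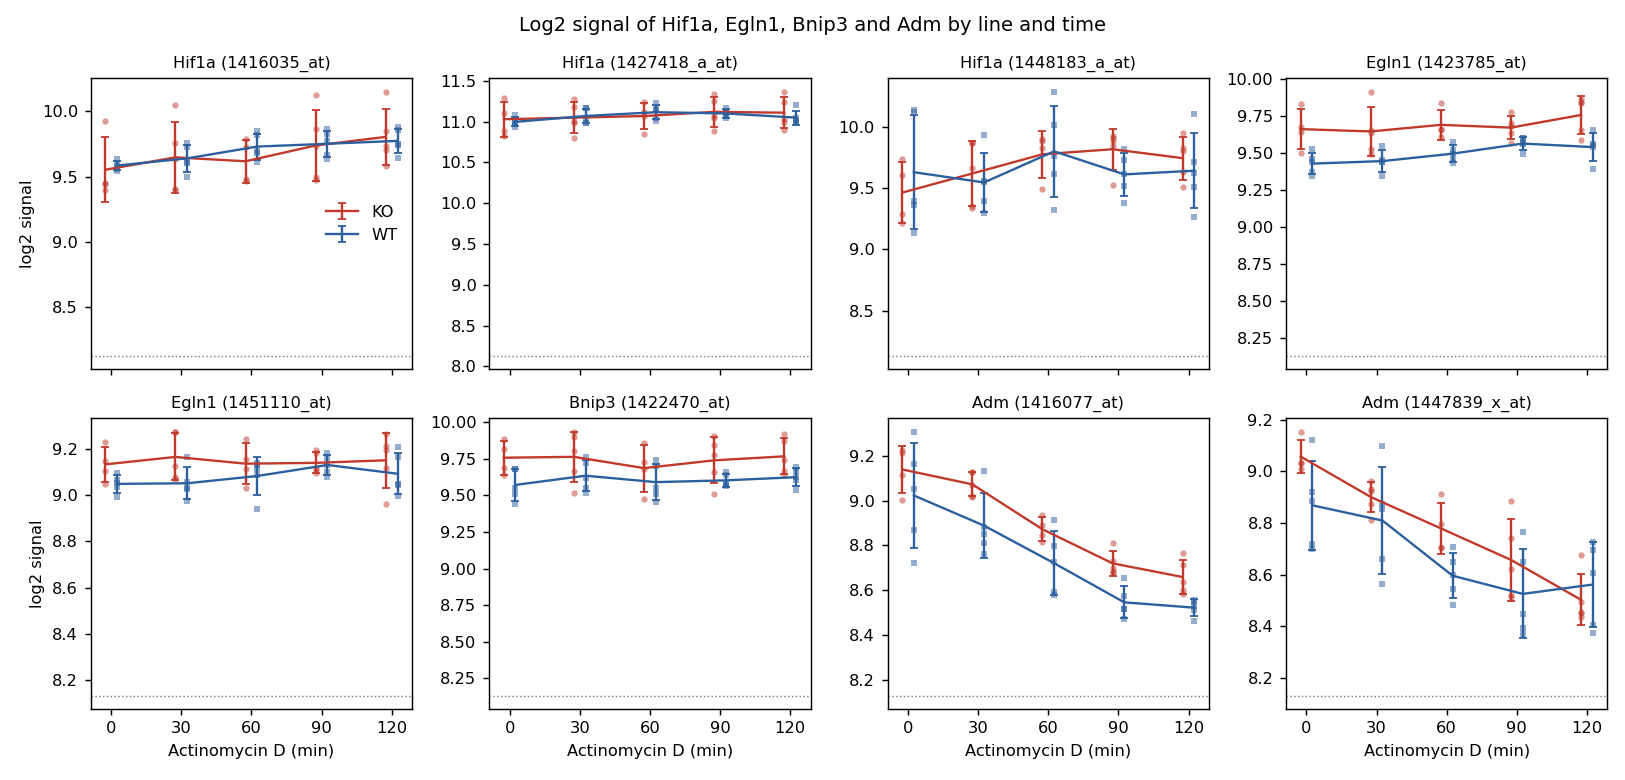
Log2 signal (vertical axis) against minutes of actinomycin D (horizontal axis) for Hif1a, Egln1, Bnip3 and Adm, with points for single arrays, lines through group means, bars of 1 SD and a dotted line at the floor of 8.13. KO is in red circles and WT in blue squares. Hif1a, Egln1 and Bnip3 move by at most 0.28 between 0 and 120 min, Egln1 (1423785_at) lies higher in KO, and Adm falls in both lines.

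Across the 14 probe sets, KO minus WT at 0 min was called higher for 2 (Hmox1 and 1 of Egln1) and lower for 2 (both of Cited2), with a median of 0.058. Over all probe sets 25.3% were called in either direction. At 120 min, 2 were called higher (the same ones as at 0 min) and 1 lower (Vegfa 1420909_at), against 32.2% in either direction and 13.4% lower over all probe sets.

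**Figure D4:**
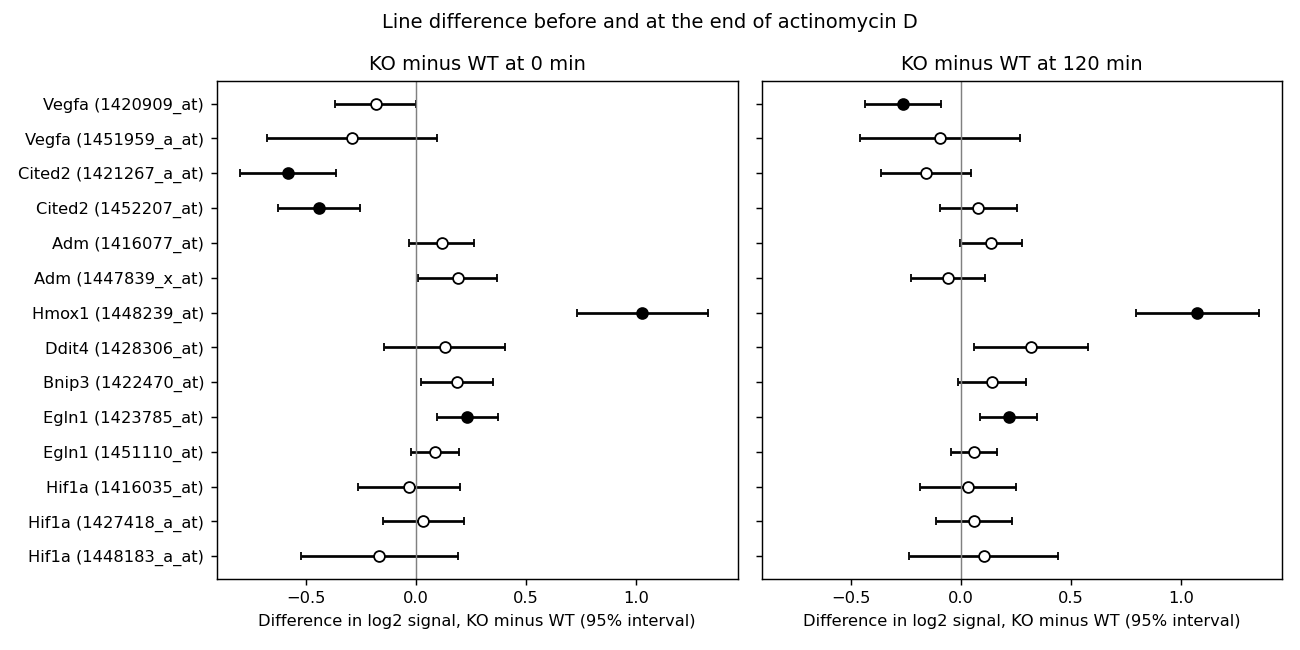
Difference in log2 signal, KO minus WT (horizontal axis, with 95% intervals), for each tested probe set (rows) at 0 min, left, and 120 min, right. Filled points passed the adjusted p of 0.05. Cited2 lies below 0 at 0 min and near 0 at 120 min, and Hmox1 lies near 1 at both times.

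Among 15 tested genes of the HIF machinery, 4 were higher and 2 lower in KO at 0 min, with a median of 0.059, against 16% higher, 13% lower and a median of 0.014 over the 13018 genes tested. Arnt2, a partner of HIF alpha subunits, averaged 10.22 in KO and 9.29 in WT (0.93 ± 0.085, adjusted p = 4.5e-12). Eloc, the elongin C of the von Hippel-Lindau complex, averaged 11.06 in KO and 11.64 in WT (-0.58 ± 0.070, adjusted p = 6.2e-09). Siah2, a ubiquitin ligase that acts on prolyl hydroxylases, was higher in KO by 0.30 ± 0.069, and Epas1, which encodes HIF-2 alpha, averaged 8.48 in KO and 8.10 in WT, at the floor, at least 1.27-fold higher in KO. The slope difference was called for 0 of these 15 genes, against 1.08% called above 0 and 0.323% below 0 over all genes. At an unadjusted p under 0.05 limma gave 2 of the 15, each above 0. Over all 13018 genes it gave 777 above 0 and 450 below 0.

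Of 29 other HIF target genes, 8 were higher and 3 lower in KO at 0 min, with a median of 0.059, against 16% higher and 13% lower over all genes. Vldlr, a lipoprotein receptor, averaged 10.36 in KO and 8.69 in WT (1.67 ± 0.151, 3.19-fold, adjusted p = 2.9e-12). Ndrg1 averaged 11.40 in KO and 10.37 in WT (1.03 ± 0.082, adjusted p = 6.4e-14). Stc1, the hormone stanniocalcin, averaged 9.12 in KO and 8.19 in WT (0.93 ± 0.153, adjusted p = 5.0e-06), with WT near the floor. Pfkfb4, a regulator of glycolysis, was lower in KO at 8.63, against 9.27 in WT (-0.64 ± 0.109, adjusted p = 8.6e-06). Kdm3a, a histone demethylase, was the only one of the 29 with a called slope difference (0.26 ± 0.064 log2 per h, adjusted p = 0.0204), where 1.08% of all genes were called above 0, at 9.67 in KO and 9.91 in WT at 0 min and 9.31 in KO and 9.0 in WT at 120 min. Egln2 belongs to this list and to the HIF machinery, and its value at 0 min (0.059) is the median of both.

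Partners of the vascular ligands were counted likewise, against 16% higher and 13% lower in KO at 0 min over all genes. For the slope difference, 1.08% of all genes were called above 0 and 0.323% below 0. At an unadjusted p under 0.05 limma gave 777 above 0 and 450 below 0 of 13018 genes. Of 9 tested genes in the list of VEGF ligands and receptors, 1 was higher and 2 lower in KO at 0 min, with a median of 0.083. This list also held Sema3a and Angpt2, which are not VEGF ligands or VEGF receptors, and the median is the value of Sema3a. Nrp1, a coreceptor of VEGF-A, averaged 11.01 in KO and 10.03 in WT (0.98 ± 0.129, adjusted p = 5.3e-08). Vegfc averaged 8.94 in KO and 9.62 in WT (-0.68 ± 0.090, adjusted p = 6.2e-08), and Vegfd 8.64 in KO and 8.97 in WT (-0.33 ± 0.086, adjusted p = 0.00304). The slope difference was called for 0 of the 9, where limma gave 2 at an unadjusted p under 0.05, 1 in each direction. Of 3 tested genes of the adrenomedullin receptor, Ramp3, a receptor activity-modifying protein, was higher in KO, at 9.89 in KO and 8.01 in WT at 0 min, at least 3.39-fold, and at 10.36 in KO and 8.03 in WT at 120 min, at least 4.68-fold. Its slope difference passed (0.20 ± 0.054 log2 per h, adjusted p = 0.0413), with WT at the floor.

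In the list of CITED genes and TFAP2 partners of Cited2, the tested genes were Tfap2a, Tfap2b and Tfap2c. No CITED gene besides Cited2 passed the filter. Of these 3, Tfap2a was higher in KO at 0 min (0.15 ± 0.051, adjusted p = 0.0231), near the floor at 8.72 in KO and 8.57 in WT. The slope difference was called for 0 of the 3, where limma gave 2 below 0 at an unadjusted p under 0.05. For this list and those below, 16% of all genes were higher and 13% lower at 0 min. At an unadjusted p under 0.05 the slope difference was above 0 for 777 and below 0 for 450 of 13018 genes. Of 9 tested genes of TOR control, 1 was higher and 2 lower in KO at 0 min, with a median of -0.021. Sesn3 averaged 9.63 in KO and 10.26 in WT (-0.64 ± 0.155, adjusted p = 0.00139), Deptor, an inhibitor of the TOR kinase, gave -0.43 ± 0.096, and Mtor, the kinase itself, 0.32 ± 0.068. Of 16 tested genes of heme handling and of the NRF2 response, which also acts on Hmox1, 2 were higher and 4 lower in KO at 0 min, with a median of -0.098. Maff gave -0.56 ± 0.101 (adjusted p = 2.0e-05), Srxn1, an antioxidant enzyme, -0.49 ± 0.101, Fth1, the ferritin heavy chain, -0.40 ± 0.059 (adjusted p = 8.0e-07), and Mafg 0.29 ± 0.078. The slope difference was called for 0 of these 9 and 0 of these 16 genes, where limma gave 1 each at an unadjusted p under 0.05.

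The genes with the course most like that of Vegfa (1420909_at) over the 10 group means, among 462 tested genes whose means spanned at least 1 log2, were Ajuba (r = 0.992), Foxj3 (0.987), Ccn1 (0.986) and Jmjd1c (0.984). Ajuba averaged 10.48 in KO and 10.50 in WT at 0 min and 9.03 in KO and 9.21 in WT at 120 min. For Cited2 (1452207_at) they were Marchf7 (r = 0.998), Jmjd1c (0.997), Foxj3 (0.996) and Usp42 (0.995). Marchf7 averaged 10.63 in KO and 10.89 in WT at 0 min and 9.58 in KO and 9.56 in WT at 120 min. These likenesses are descriptions over group means of the same 48 arrays.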

How the data were processed

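RNA of 48 samples was hybridised to Affymetrix Mouse Genome 2.0 arrays; the labels' protocols name GeneChip Operating Software 1.2.0.037. Each deposited value is a log2 signal of 1 probe set. Their summary and normalisation steps are not given in the sources used here; base 2 was taken from the range of values. Depth does not apply to arrays, whose number limits the precision. No column belonged to another series.

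A probe set entered the tests if 4 or more arrays had it above their own median (27500 of 45037). limma 3.58.1 (R 4.3.3, data.table version 1.17.8), with trend and robust empirical Bayes, was fitted with 1 mean per group, and again with an intercept and a slope on hours per line. Tests were two-sided. The slope difference was checked on simulated data with independent noise on each array and no effect of experiment day. Figures were drawn with matplotlib 3.10.9 (Python 3.11.15, numpy 2.4.6, pandas 2.3.3).

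The series text says that a replicate number is an experiment day shared by both lines, which pairs the samples. Deviations of same-numbered samples correlated above 0.1 in 16 of 23 pairs (median 0.17, -0.25 to 0.60). The main fit has no block, which is an alternative with no filter, quantile normalization, background subtraction (each array's 5th percentile, floor 32), plain empirical Bayes, leaving out each replicate, and, chosen after seeing the data, each of the 2 sets of experiments. The 9 genes and all lists were chosen with earlier results of these data known. Named from each list were up to 4 genes with the largest called slope difference and up to 4 with the largest called KO minus WT at 0 min, 1 probe set a gene (highest mean).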

Additional observations from a re-analysis of the deposited data

Results flagged for a closer look

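In 7 of the 140 sets of arrays examined (14 probe sets in 10 groups), 1 array stood apart from the others of its group, and chance alone flags about 1 in 20 such sets. The arrays were KO experiment 4 at 0 min for Hif1a 1416035_at (9.927), KO experiment 3 at 90 min for Hif1a 1448183_a_at (9.523), KO experiment 3 at 0 min and KO experiment 1 at 120 min for Adm 1447839_x_at (9.154 and 8.674), WT experiment 3 at 0 min for Cited2 1421267_a_at (10.705), WT experiment 5 at 120 min for Hif1a 1427418_a_at (11.198), and WT experiment 4 at 60 min for Egln1 1451110_at (8.941). Experiment 3 gave 3 of the 7, experiment 4 gave 2, and experiments 1 and 5 gave 1 each.

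The Cited2 slope of 1452207_at differed between the lines by the test of the difference itself (0.303 log2 per h, KO minus WT, adjusted p = 0.0489), and the adjusted p passed in 2 of 12 alternatives.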

How the results depend on the processing

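The 14 probe sets were refitted under 12 alternatives. Of the refitted values, 1290 kept their side of the threshold or never reached it. The call was lost for 32 and gained for 21, and 1 was counted as turned in sign. That 1 was the KO minus WT value of Hif1a 1448183_a_at at 0 min. Over all experiments it was -0.17 and not past the threshold, so no call was reversed. Within experiments 4 and 5 it was 0.49, which rests on 1 KO array at 0 min. The counts over all probe sets moved by more than 1.5 times as follows, and the cause was not tested. With the replicate block, which uses the pairing of the lines by day, 582 probe sets were called for the change from 0 to 30 min in KO, 16 for the difference of that change and 534 for the slope difference, against 351, 9 and 285 without it; the block changed the calls of Bnip3 at 0 and 120 min and of Ddit4 at 120 min, given above, and no other call of these genes. With background subtraction the counts were 196 for the early change in KO, 316 in WT and 2 for its difference. Within experiments 1 to 3 they were 233 for the early change in KO, 204 in WT (498 over all experiments) and 174 for the slope difference. Within experiments 4 and 5 they were 220 for the early change in KO, 1007 in WT, 15 for its difference, 3079 for the change over 120 min in KO (6192 over all experiments) and 181 for the slope difference. Leaving out each replicate in turn gave 212 to 310 for the early change in KO, 306 to 505 in WT, 5 to 10 for its difference and 134 to 343 for the slope difference. Background subtraction made the called changes over 120 min of Adm, of Ddit4 and, in KO, of Cited2 1421267_a_at (-2.44, against -1.56 as deposited) 1.56 to 3.06 times as large, the most for Adm 1447839_x_at in WT (-0.94, against -0.31). Only changes made more than 1.5 times as large are named here. Signals within about 1 log2 of the floor, those of Adm and Ddit4 and the late times of Cited2, leave little room for a fall.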
